A study of Teleogryllus oceanicus with 18 samples.

Results

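Among 23748 genes tested in male field crickets, *Teleogryllus oceanicus*, 11 peaked by a fixed margin 4 days after infestation with parasitoid fly larvae in both populations studied, relative both to uninfested controls and to crickets collected 7 days after infestation. They were chosen on group means of CPM, the read pairs of a gene scaled by library size and by TMM, the trimmed mean of M values. In Kauai and in Mangaia crickets alike, a gene needed a control mean of at least 1 CPM and under 1000 CPM, a day 4 mean of at least 5 CPM, and a day 4 mean at least 1.5 times the control mean and at least 1.5 times the day 7 mean. The files list 32729 genes, and a gene was tested if 2 or more of the 18 libraries reached 1 CPM. The levels at day 4, in controls and at day 7 therefore chose these genes, and the day 4 peak itself is described below and not tested.

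Gene expression was measured by RNA-seq in 6 groups of 3 libraries each, and every library pooled RNA of 2 adult males. Kauai crickets were uninfested controls, crickets 4 days after infestation or crickets 7 days after infestation, and each Kauai pool joined 1 flatwing male, which cannot sing, and 1 normal-wing male. Mangaia crickets formed the same 3 groups from pools of normal-wing males only. Each population had a single control group, labelled with no collection day, and the study weighed controls up to 7 days after the infestations. Day 4 crickets therefore had no control group of their own, and time since handling was not separated from infestation. Infested crickets had received 2 planidia, the first larval stage of the fly *Ormia ochracea*, whereas controls were handled in the same way without larvae. Both populations came from laboratory colonies kept without flies. The labels call the tissue abdominal, and their protocol gives it as the body left after head, digestive tract, pronotum, wings, legs and larvae had been removed. Each library therefore holds mixed tissues, in which fewer cells of a type and less RNA per cell cannot be told apart. Nothing in the labels says when or in which batches the pools were prepared. Adjusted p-values weigh differences between groups against the spread between pools of 2 crickets, and not against the spread between single crickets.

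Planidia of *O. ochracea* burrow into a cricket and feed inside it until they emerge and the host dies. Insect hosts meet parasitoids laid as eggs with haemocytes, the blood cells that form a capsule around the egg. Phenoloxidases are the enzymes that deposit melanin in that capsule. The study describes tachinid larvae as mobile until they emerge, and so able to escape complete encapsulation. Toll-like receptors belong to the signalling that recognises microbes and switches on immune genes.

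None of the 11 genes carried a name or description in the sources used here. Each is given by its identifier and no function is assigned to any of them. All 11 identifiers begin with MSTRG, as did 92.1% of the genes tested, and no 2 of them had consecutive numbers. None of the 11 was among 53 genes that the study lists by identifier for immune functions, all but 1 of them with a description, and which are a subset of the immune genes it counts.

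Few genes met the ratios to control and to day 7 at once. The level conditions were met in both populations by 10817 genes. Of these, 572 had a day 4 mean at least 1.5 times the control mean in both populations and 2080 had a day 4 mean at least 1.5 times the day 7 mean in both. Both ratios were met by 81 genes in Kauai crickets and by 141 in Mangaia crickets, and 11 met all 4. The mean of the 3 day 4 libraries was 1.70 to 8.09 times the control mean in Kauai crickets (median 2.08) and 1.54 to 16.5 times in Mangaia crickets (median 3.72). The same mean was 1.51 to 5.43 times the day 7 mean in Kauai crickets (median 2.29) and 1.55 to 30.8 times in Mangaia crickets (median 2.56). The genes were of low to moderate abundance, with 465 to 4665 read pairs each over the 18 libraries and means of 3.60 to 35.9 CPM.

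**Figure D1:**
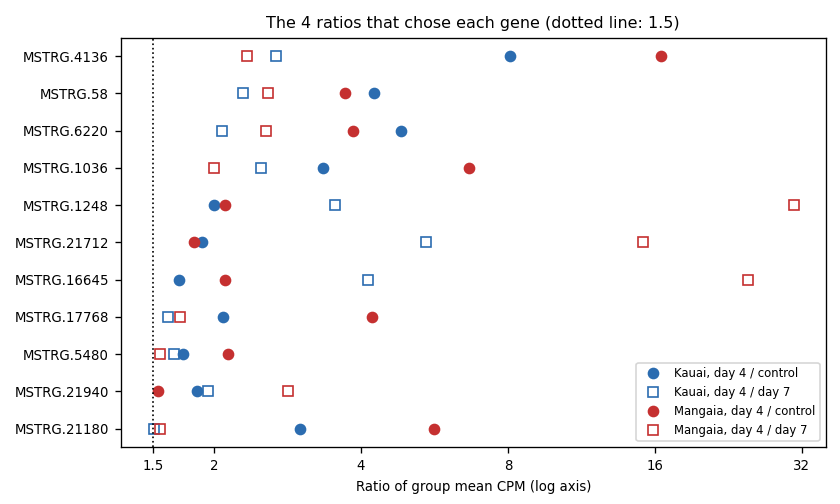
Ratios of group mean CPM, on a log axis, for the 11 genes, with 1 row per gene. Filled circles are day 4 over control and open squares day 4 over day 7, in blue for Kauai and red for Mangaia, and every mark lies right of the dotted line at 1.5, from 1.51 (MSTRG.21180, Kauai, day 4 over day 7) to 30.8 (MSTRG.1248, Mangaia, day 4 over day 7).

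The 18 libraries held 6266925 to 8023588 read pairs in genes, so that 1 pair was worth 0.122 to 0.166 CPM. TMM factors ran from 0.846 to 1.151. Pairs mapping to several places were counted in no gene. Their share was 6.57% to 14.4% and highest in Kauai day 4 library 2. Mangaia day 7 library 2 had the lowest mean correlation with the other libraries of its group (0.902, against 0.923 to 0.964 for the other 17). No 2 libraries of a group were identical.

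Taken library by library, the peak was complete for some of the 11 genes and partial for others. All 3 day 4 libraries were above all control and all day 7 libraries for 5 of the 11 genes in Kauai crickets (0.821% of genes tested) and for 7 in Mangaia crickets (3.19%). MSTRG.21712, MSTRG.16645 and MSTRG.17768 did so in both populations, as did 12 of all genes tested (0.0505%). The rule used these values, so nothing is read from the counts. The day 4 libraries were above all controls for 10 of the 11 genes in Kauai crickets (13.3% of genes tested), with MSTRG.1248 the exception, and for 8 in Mangaia crickets (12.0%), with MSTRG.58, MSTRG.6220 and MSTRG.21940 as exceptions. They were above all day 7 libraries for 5 genes in Kauai crickets (24.0% of genes tested) and for 8 in Mangaia crickets (23.6%), where MSTRG.58, MSTRG.6220 and MSTRG.21180 overlapped.

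**Figure D2:**
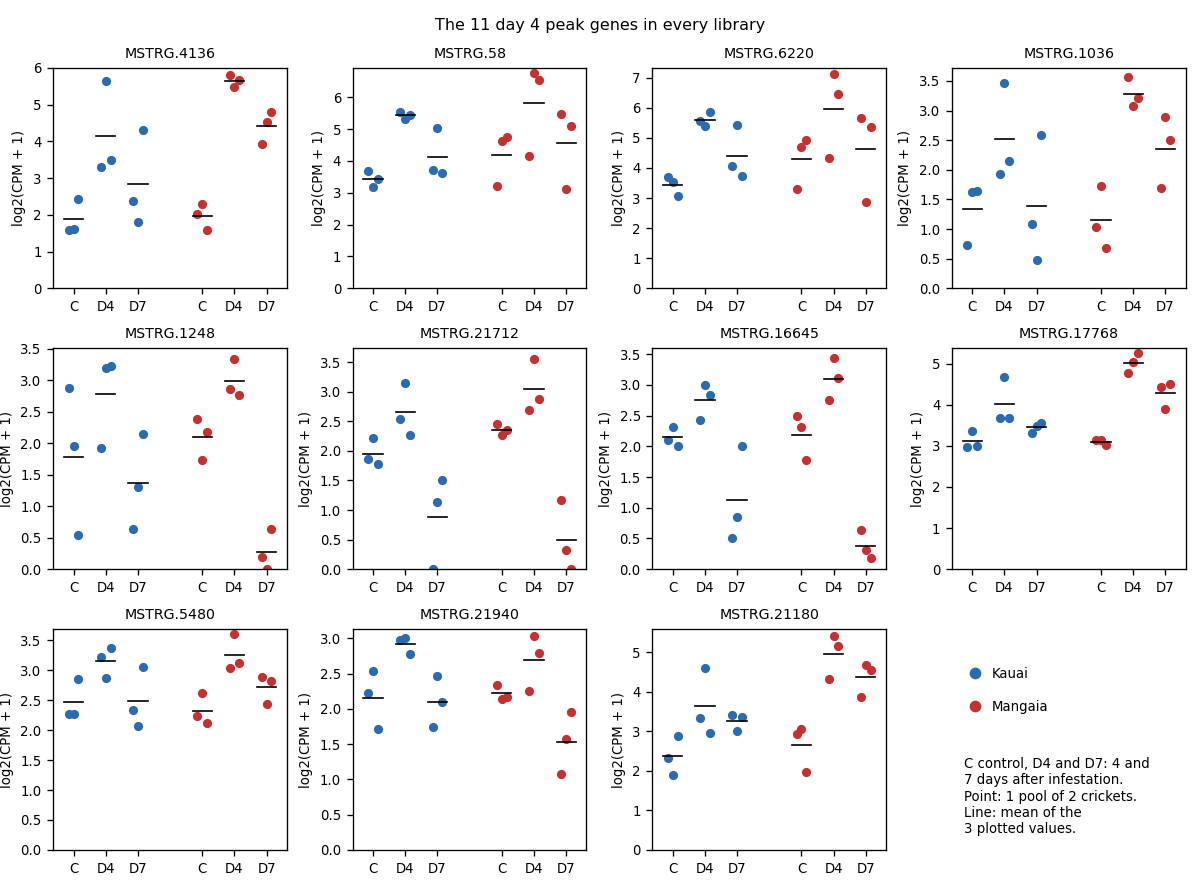
Log2(CPM + 1) of the 11 genes in every library, with Kauai in blue left of Mangaia in red and, within each, controls (C), day 4 (D4) and day 7 (D7). Each point is 1 pool of 2 crickets and each line the mean of the 3 plotted values, and the 3 points of D4 lie above all points of C and D7 in both populations for MSTRG.21712, MSTRG.16645 and MSTRG.17768.

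The contrasts that the rule used are given as a description, by edgeR's quasi-likelihood test at an adjusted p under 0.05. At day 4 against controls in Kauai crickets it called none of the 11 genes, where 1.73% of all genes tested were called higher. An unadjusted p under 0.05 was reached by 8 of the 11, and by 4602 of all 23748 genes tested in either direction. In Mangaia crickets the test called MSTRG.4136, MSTRG.17768 and MSTRG.21180 (1.89%). For day 4 against day 7 it called MSTRG.16645 and MSTRG.21712 in Kauai crickets (15.5%) and MSTRG.16645, MSTRG.1248, MSTRG.21712, MSTRG.21940 and MSTRG.17768 in Mangaia crickets (16.8%).

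The rule did not compare day 7 with uninfested crickets, a comparison that asks whether the genes were back at the control level. It did hold the day 7 mean at or under the day 4 mean divided by 1.5, with no floor. A gene such as MSTRG.21940, at 1.54 times control at day 4 in Mangaia crickets, could thus hardly stand above controls at day 7, while falls were not limited. The counts of higher and lower genes are therefore descriptions, and all genes tested, given beside them, carried no such limit. In Mangaia crickets 3 of the 11 genes were higher and 3 were lower at day 7 than in controls, 6 called in all, where 12.6% of genes tested were higher, 18.8% lower and 31.4% called in all. The other 5 were not called, and all 6 calls held without Mangaia day 7 library 2. In Kauai crickets none was called by edgeR's quasi-likelihood test, where 51.3% of genes tested were. An unadjusted p under 0.05 was reached by 2 of the 11, and by 13687 of all 23748 genes tested. The likelihood ratio test called 3 of the 11 (12853 of all genes), DESeq2 2 (12428) and limma voom 2 (12142). The median log2 fold change of the 11 genes at day 7 was 0.37 in Kauai crickets, against 0.07 for all genes, and 0.53 in Mangaia crickets, against -0.01 for all genes. In both populations 7 of the 11 had a positive and 4 a negative fold change. The Kauai split was 6 to 5 with RLE size factors and 8 to 3 with library size alone, which moved the Kauai median of all genes to -0.10 and 0.37. The genes are taken below in groups by this day 7 level, which was seen before they were grouped.

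**Figure D3:**
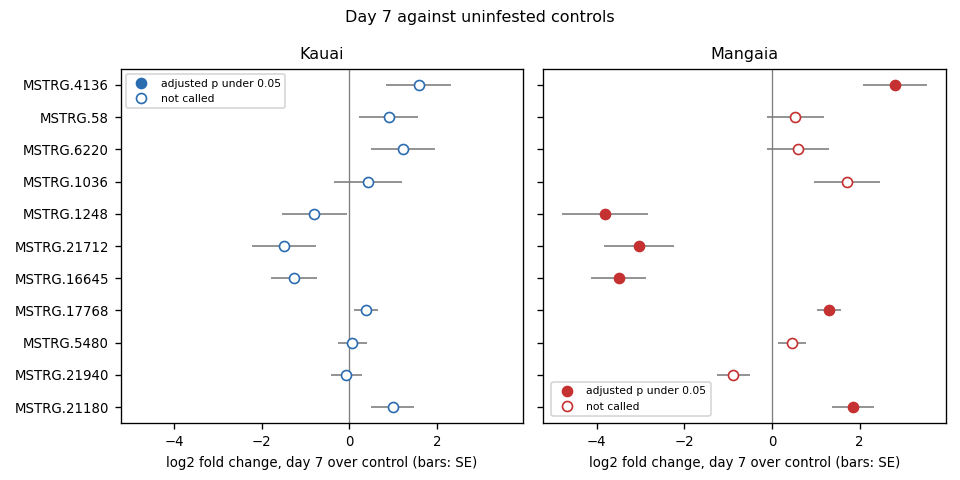
Log2 fold change of day 7 over control for the 11 genes from edgeR's quasi-likelihood fit, with bars of 1 SE (n = 3 libraries per group), for Kauai (left) and Mangaia (right). Filled points had an adjusted p under 0.05 over all genes tested: none of 11 in Kauai, and 3 above and 3 below 0 in Mangaia, from -3.81 for MSTRG.1248 to 2.81 for MSTRG.4136.

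The largest ratios of day 4 to control in both populations were those of MSTRG.4136. In Kauai libraries it had 1.99, 2.07 and 4.40 CPM in controls, 8.95, 49.3 and 10.3 CPM at day 4, and 4.16, 2.52 and 18.9 CPM at day 7. Mangaia libraries had 3.03, 3.95 and 1.98 CPM in controls, 54.5, 43.4 and 50.0 CPM at day 4, and 14.3, 22.2 and 26.9 CPM at day 7. The 3 Mangaia groups did not overlap, whereas in Kauai crickets 1 day 4 library stood far above the other 2, and 1 day 7 library lay above those 2. At day 7 MSTRG.4136 was higher than in controls in Mangaia crickets, with a log2 fold change of 2.81 (SE 0.734, edgeR quasi-likelihood adjusted p = 0.0120), which no longer passed without Mangaia control 1 (2.68, adjusted p = 0.0536). The Kauai value was 1.58 (SE 0.740, adjusted p = 0.0846 in that fit), and it rested on Kauai day 7 library 3, without which it was 0.15 (adjusted p = 0.873). It passed without Kauai day 4 library 2, at an adjusted p of 0.0394, and without Kauai day 7 library 2, at 0.0384. The likelihood ratio test (adjusted p = 0.0480) and the quasi-likelihood test with library size alone (adjusted p = 0.0419) called it too.

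MSTRG.17768 also stood above controls at day 7 in Mangaia crickets. Its Kauai libraries had 6.81, 9.24 and 6.97 CPM in controls, 11.7, 24.5 and 11.8 CPM at day 4, and 8.88, 10.2 and 10.7 CPM at day 7. Its Mangaia libraries had 7.76, 7.77 and 7.17 CPM in controls, 26.5, 31.9 and 37.2 CPM at day 4, and 20.5, 14.0 and 21.7 CPM at day 7. Every day 7 library of Mangaia lay between its controls and its day 4 libraries, while the Kauai day 7 libraries overlapped the highest Kauai control. The log2 fold change of day 7 over control was 1.30 in Mangaia crickets (SE 0.275, edgeR quasi-likelihood adjusted p = 0.00426) and 0.37 in Kauai crickets (SE 0.278, not called). The difference between these responses, Kauai minus Mangaia, was -0.93 and had an adjusted p of 0.180 in the interaction term of the same fit.

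MSTRG.21180 was the gene nearest to the threshold of the rule. It had 3.99, 2.71 and 6.37 CPM in Kauai controls, 9.10, 23.4 and 6.70 CPM at day 4, and 9.72, 7.03 and 9.24 CPM at day 7. The Mangaia libraries held 6.58, 7.36 and 2.90 CPM in controls, 18.9, 41.4 and 34.5 CPM at day 4, and 13.7, 24.7 and 22.6 CPM at day 7. Day 4 and day 7 libraries overlapped in both populations, and all 6 infested libraries were above all 3 controls in each. At day 7 it was higher than in controls in Mangaia crickets by a log2 fold change of 1.85 (SE 0.475, edgeR quasi-likelihood adjusted p = 0.0111). The value in Kauai crickets was 0.99 (SE 0.487, adjusted p = 0.102 in that fit), and 1.31 (adjusted p = 0.0359) when libraries were scaled by their size alone.

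The scarce gene MSTRG.1036 varied with MSTRG.4136. It had 0.664, 2.07 and 2.12 CPM in Kauai controls, 2.79, 10.1 and 3.42 CPM at day 4, and 1.11, 0.398 and 5.02 CPM at day 7. Across Mangaia libraries it had 1.05, 2.32 and 0.610 CPM in controls, 10.9, 7.46 and 8.22 CPM at day 4, and 2.22, 6.38 and 4.66 CPM at day 7. Its highest Kauai libraries at day 4 and at day 7 were the same libraries as for MSTRG.4136. Kauai day 7 overlapped both other Kauai groups, and Mangaia day 7 overlapped Mangaia controls through library 1. Neither day 7 fold change over control was called: 0.42 in Kauai crickets (SE 0.781) and 1.72 in Mangaia crickets (SE 0.754, edgeR quasi-likelihood adjusted p = 0.0916). The Kauai value turned to -1.18 without Kauai day 7 library 3 and to -0.12 in limma voom, and the Mangaia value was 2.42 without Mangaia control 2 (adjusted p = 0.0663).

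At the other end, MSTRG.1248, MSTRG.21712 and MSTRG.16645 were almost undetected in Mangaia crickets at day 7. The 3 Mangaia libraries of each stage together held 72 read pairs of MSTRG.1248 in controls, 160 at day 4 and 5 at day 7. MSTRG.21712 had 89 pairs in controls, 170 at day 4 and 11 at day 7, and MSTRG.16645 had 80, 175 and 7 pairs at the same stages. In both populations the means of all 3 genes were above the control mean at day 4 and below it at day 7.

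MSTRG.16645 had 3.32, 3.98 and 3.03 CPM in Kauai controls, 4.40, 7.00 and 6.16 CPM at day 4, and 0.416, 0.796 and 3.04 CPM at day 7. In Mangaia libraries it had 4.60, 3.95 and 2.44 CPM in controls, 5.74, 9.80 and 7.68 CPM at day 4, and 0.554, 0.246 and 0.137 CPM at day 7. No groups overlapped except Kauai day 7 and Kauai controls, through day 7 library 3. The log2 fold change of day 7 over control was -3.50 in Mangaia crickets (SE 0.631, edgeR quasi-likelihood adjusted p = 0.00175). It was -1.26 in Kauai crickets (SE 0.517, adjusted p = 0.0520 in that fit). Without Kauai day 7 library 3 the Kauai value was -2.56 (adjusted p = 0.00106), and it also passed without Mangaia day 4 library 1 (adjusted p = 0.0489). The likelihood ratio test, DESeq2, limma voom and RLE size factors called the Kauai value too, with adjusted p from 0.0146 to 0.0312.

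MSTRG.21712 had 2.66, 3.66 and 2.43 CPM in Kauai controls, 4.84, 7.84 and 3.83 CPM at day 4, and 0, 1.19 and 1.85 CPM at day 7. Mangaia libraries had 4.47, 3.81 and 4.12 CPM in controls, 5.50, 10.8 and 6.33 CPM at day 4, and 1.25, 0.246 and 0 CPM at day 7. The 3 groups did not overlap in either population. A library with no pair allows up to 3 pairs, which is 0.416 CPM in Kauai day 7 library 1 and 0.412 CPM in Mangaia day 7 library 3, for counting error only. Day 7 was lower than control in Mangaia crickets, with a log2 fold change of -3.04 (SE 0.794, edgeR quasi-likelihood adjusted p = 0.0120). The Kauai value was -1.50 (SE 0.736, adjusted p = 0.101 in that fit), and -2.33 without Kauai day 7 library 3 (adjusted p = 0.0407). The likelihood ratio test (adjusted p = 0.0352), DESeq2 (0.0284) and limma voom (0.0400) called the Kauai value too. The Mangaia value was -4.77 without Mangaia day 7 library 1 and -2.44 without Mangaia day 7 library 3, called in both cases.

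MSTRG.1248 had 6.31, 2.87 and 0.455 CPM in Kauai controls, 2.79, 8.12 and 8.35 CPM at day 4, and 0.555, 1.46 and 3.43 CPM at day 7. The Mangaia libraries held 4.21, 2.32 and 3.51 CPM in controls, 6.23, 9.11 and 5.79 CPM at day 4, and 0.139, 0 and 0.549 CPM at day 7. Its Mangaia groups did not overlap, and its Kauai groups all did, with control 1 above and control 3 below day 4 library 1. The Mangaia day 7 library with no pair allows up to 0.368 CPM. Day 7 was lower than control in Mangaia crickets by a log2 fold change of -3.81 (SE 0.987, edgeR quasi-likelihood adjusted p = 0.0115), against -0.80 in Kauai crickets (SE 0.748, not called). The Mangaia value was -5.31 without Mangaia day 7 library 3 and -3.19 without Mangaia day 7 library 2, called in both cases. The Kauai value was 0.14 without Kauai control 1 and -1.74 without Kauai day 7 library 3, called in neither.

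MSTRG.21940 lay beside these 3 genes at a higher day 7 level. It had 3.65, 4.78 and 2.27 CPM in Kauai controls, 6.89, 7.00 and 5.88 CPM at day 4, and 2.36, 4.51 and 3.30 CPM at day 7. Across Mangaia libraries it had 4.08, 3.41 and 3.51 CPM in controls, 3.79, 7.18 and 5.93 CPM at day 4, and 1.11, 1.96 and 2.88 CPM at day 7. Kauai day 7 lay within the range of Kauai controls, and all Mangaia day 7 libraries were under all Mangaia controls. The log2 fold change of day 7 over control was -0.88 in Mangaia crickets (SE 0.369, edgeR quasi-likelihood adjusted p = 0.0794, DESeq2 adjusted p = 0.0414). It passed in Mangaia crickets without Kauai day 7 library 1 (adjusted p = 0.0420), without Kauai day 7 library 2 (adjusted p = 0.0465) or without Mangaia day 4 library 1 (adjusted p = 0.0409), with values of -1.02 each, while the median of all genes in that comparison was about -0.15 in these 3 fits and -0.01 with all libraries. The Kauai value was -0.07 (SE 0.358) and changed sign without Kauai control 2 (0.20), without Kauai day 7 library 1 (0.06) or with library size alone (0.21).

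The most abundant of the 11 genes were MSTRG.6220 and MSTRG.58, whose levels ran almost in parallel. MSTRG.6220 had 12.0, 10.5 and 7.43 CPM in Kauai controls, 46.5, 41.3 and 56.5 CPM at day 4, and 15.7, 41.8 and 12.1 CPM at day 7. In Mangaia libraries it had 8.81, 24.7 and 29.6 CPM in controls, 19.2, 138.1 and 86.1 CPM at day 4, and 49.2, 6.26 and 39.6 CPM at day 7. Kauai day 7 library 2 reached the day 4 level, Mangaia day 4 library 1 lay within the range of the Mangaia controls, and Mangaia day 7 library 2 lay below all of them.

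MSTRG.58 was high and low in the same libraries, except that its Kauai day 7 library 2 stayed under the day 4 level. It had 12.0, 8.13 and 9.85 CPM in Kauai controls, 45.5, 38.8 and 42.8 CPM at day 4, and 12.2, 32.0 and 11.4 CPM at day 7. Mangaia libraries had 8.29, 23.6 and 26.1 CPM in controls, 16.7, 106.3 and 92.3 CPM at day 4, and 43.1, 7.61 and 32.9 CPM at day 7. Its day 4 libraries varied little in Kauai crickets (42.4 ± 3.38 CPM, SD, n = 3) and widely in Mangaia crickets (71.8 ± 48.2 CPM, SD, n = 3). Neither gene was called at day 7. The log2 fold change over control for MSTRG.58 was 0.89 in Kauai crickets (SE 0.665) and 0.53 in Mangaia crickets (SE 0.648). For MSTRG.6220 it was 1.22 in Kauai crickets (SE 0.729) and 0.59 in Mangaia crickets (SE 0.707). Without Kauai day 7 library 2 the Kauai values were 0.20 for MSTRG.58 and 0.44 for MSTRG.6220.

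MSTRG.5480 was near its control level at day 7. It had 3.82, 3.82 and 6.22 CPM in Kauai controls, 8.36, 6.30 and 9.30 CPM at day 4, and 4.03, 3.18 and 7.26 CPM at day 7. The Mangaia libraries held 3.68, 5.18 and 3.36 CPM in controls, 7.21, 11.2 and 7.68 CPM at day 4, and 6.37, 4.42 and 6.04 CPM at day 7. Day 7 overlapped control in both populations. The log2 fold change was 0.06 in Kauai crickets (SE 0.331) and 0.46 in Mangaia crickets (SE 0.329), neither of them called. The Kauai value changed sign under several alternatives, with -0.45 without Kauai day 7 library 3 and -0.12 with RLE size factors.

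Kauai and Mangaia crickets were then compared with each other at each stage. In controls none of the 11 genes was called by edgeR's quasi-likelihood test, where 0.0421% of genes tested were. None of the 11 had an unadjusted p under 0.05, against 3539 of all 23748 genes tested. The likelihood ratio test, DESeq2 and limma voom called none of the 11, against 513, 640 and 15 of all genes. The log2 fold changes of Kauai over Mangaia in controls ran from -1.08 for MSTRG.6220 to 0.28 for MSTRG.1036, with 3 positive and 8 negative, against 6 and 5 with RLE size factors and 1 and 10 with library size alone.

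At day 4 the fold change of Kauai over Mangaia was negative for 10 of the 11 genes, also with RLE size factors and library size alone. Its median was -0.70, against -0.01 for all genes tested, and MSTRG.21940 was the exception (0.23). The rule put conditions on the day 4 means of both populations, and the 11 genes share the same day 4 libraries. The count of signs is therefore a description, and rescaling the same libraries adds no support to it. None of the 11 was called by edgeR's quasi-likelihood test. It called 0.152% of all genes tested, and 0 genes with RLE size factors or library size alone. Among all genes tested 2339 had an unadjusted p under 0.05, and among the 11 genes 2 did. These were MSTRG.17768, with 16.0 ± 7.35 CPM in Kauai and 31.9 ± 5.34 CPM in Mangaia crickets at day 4 (SD, n = 3 each, log2 fold change -0.99, SE 0.267, adjusted p = 0.119), and MSTRG.21180 (log2 fold change -1.27, SE 0.456, adjusted p = 0.280). MSTRG.17768 was called by the likelihood ratio test (adjusted p = 0.0407) and by DESeq2 (adjusted p = 0.0417), which called 505 and 473 of all genes tested. The quasi-likelihood test called it, with 12 genes in all, without Kauai day 4 library 2, where the log2 fold change was -1.46 (adjusted p = 0.0419). That library was the highest of the 3 Kauai day 4 libraries for MSTRG.17768.

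At day 7 none of the 11 was called between the populations by edgeR's quasi-likelihood test (3.53% of genes tested). Among all genes tested 5570 had an unadjusted p under 0.05, and among the 11 genes 4 did. Positive fold changes among these were those of MSTRG.1248, with 1.82 ± 1.47 CPM in Kauai against 0.229 ± 0.285 CPM in Mangaia libraries (SD, n = 3 each, log2 fold change 2.94, SE 1.04, adjusted p = 0.106), and MSTRG.16645, with 1.42 ± 1.42 CPM in Kauai against 0.312 ± 0.216 CPM in Mangaia libraries (log2 fold change 2.14, SE 0.681, adjusted p = 0.0817). MSTRG.17768 had 9.93 ± 0.936 CPM in Kauai and 18.7 ± 4.14 CPM in Mangaia crickets (log2 fold change -0.91, SE 0.271, adjusted p = 0.0669), and for MSTRG.21180 the value was -1.23 (SE 0.462, adjusted p = 0.126). The likelihood ratio test and DESeq2 called MSTRG.1248, MSTRG.16645 and MSTRG.17768, and they called 2268 and 2610 of all genes tested. Limma voom called none of the 11 (1248 of all genes). The quasi-likelihood test called MSTRG.17768 without Kauai day 4 library 2 (adjusted p = 0.0221, 1278 of all genes called).

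Whether the day 7 response differed between the populations was tested as an interaction, since the calls at day 7 were made in Mangaia crickets and not in Kauai crickets. None of the 11 passed in edgeR's quasi-likelihood test (2.43% of genes tested). The likelihood ratio test, DESeq2 and limma voom also called none of the 11, against 1711, 2102 and 701 of all genes. Among all genes tested 5088 had an unadjusted p under 0.05, and among the 11 genes 3 did. Those 3 were MSTRG.16645 (2.23, adjusted p = 0.141), MSTRG.1248 (3.01, adjusted p = 0.186) and MSTRG.17768, as log2 differences of the Kauai response from the Mangaia response. The day 7 responses of the 11 genes were thus not shown to differ between the populations.

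The membership of several genes rested on single pools, through a ratio or through a floor of the rule. The highest of the 3 Kauai day 4 libraries was library 2 for 7 of the 11 genes, and in Mangaia it was library 2 for 8. With single libraries left out, MSTRG.58, MSTRG.6220 and MSTRG.16645 still met the rule in all 18 cases. Without Kauai day 4 library 2, MSTRG.4136, MSTRG.1036, MSTRG.21712, MSTRG.17768 and MSTRG.21180 no longer met it, and the rule then chose 7 genes, 6 of them among the 11. The part of the larger share of pairs mapping to several places in that library was not tested. Without Mangaia day 4 library 2, MSTRG.21712, MSTRG.5480, MSTRG.21940 and MSTRG.21180 no longer met it. MSTRG.21180 failed in 4 of the 18 cases, MSTRG.5480 in 3, MSTRG.1036, MSTRG.21712 and MSTRG.21940 in 2 each, and MSTRG.4136, MSTRG.17768 and MSTRG.1248 in 1 each, the last without Kauai control 3. A failed rule is not always a lost peak. Without Mangaia control 2, MSTRG.1036 had Mangaia controls of 1.05 and 0.610 CPM, on average under the floor of 1 CPM. Without Kauai day 4 library 2, MSTRG.21712 had Kauai day 4 values of 4.84 and 3.83 CPM, under the floor of 5 CPM.

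**Figure D4:**
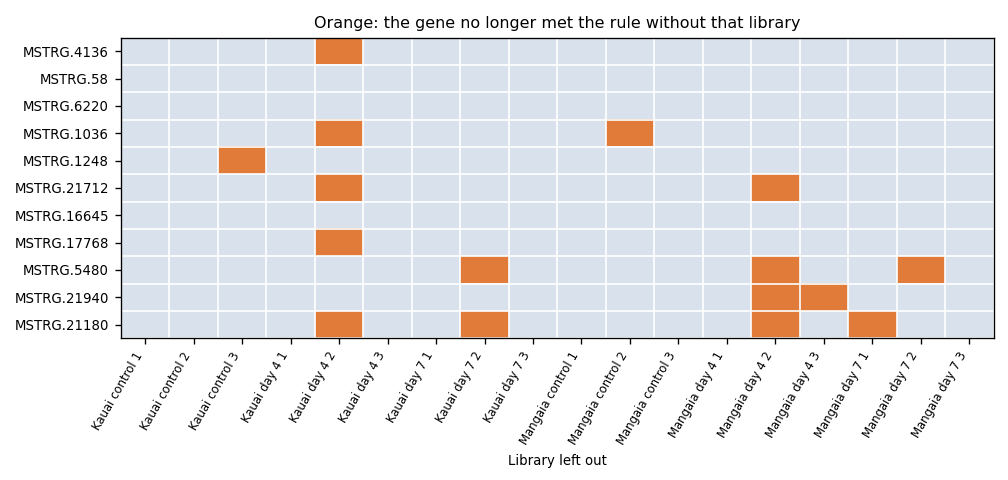
Membership of the 11 genes (rows) when each of the 18 libraries (columns, Kauai left of Mangaia) was left out of the group means. Orange cells mark a gene that no longer met the rule, 5 of them in the column of Kauai day 4 library 2, and the rows of MSTRG.58, MSTRG.6220 and MSTRG.16645 hold none.

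The 11 genes did not vary as one set. Over the 18 libraries the 55 pairs of genes had Pearson correlations of log2 CPM from -0.04 to 0.986, with a median of 0.445, and 8 pairs were over 0.8. These are descriptions, because all 11 were chosen for one shape over the same groups and share libraries and depth. Taking out the group means, which removes that shape, left a median of 0.199 and 2 pairs over 0.8.

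Those 2 pairs were MSTRG.58 with MSTRG.6220 (0.986 over the 18 libraries, 0.975 without group means) and MSTRG.4136 with MSTRG.1036 (0.931 and 0.899). MSTRG.58 and MSTRG.6220 were each other's closest gene among all genes tested, and the CPM of MSTRG.58 was 0.758 to 1.33 times that of MSTRG.6220 in every library. MSTRG.4136 was the closest of all genes to MSTRG.1036, and MSTRG.1036 ranked second for MSTRG.4136 after MSTRG.16281 (0.941), which is not among the 11. MSTRG.4136 was also the closest of all genes to MSTRG.17768 (0.912). Of the genes that were nearly undetected at day 7 in Mangaia crickets, MSTRG.21712 and MSTRG.16645 had a correlation of 0.944 (0.790 without group means). They were not each other's closest genes: among all genes tested, MSTRG.16645 ranked 10 for MSTRG.21712, and MSTRG.21712 ranked 15 for MSTRG.16645.

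**Figure D5:**
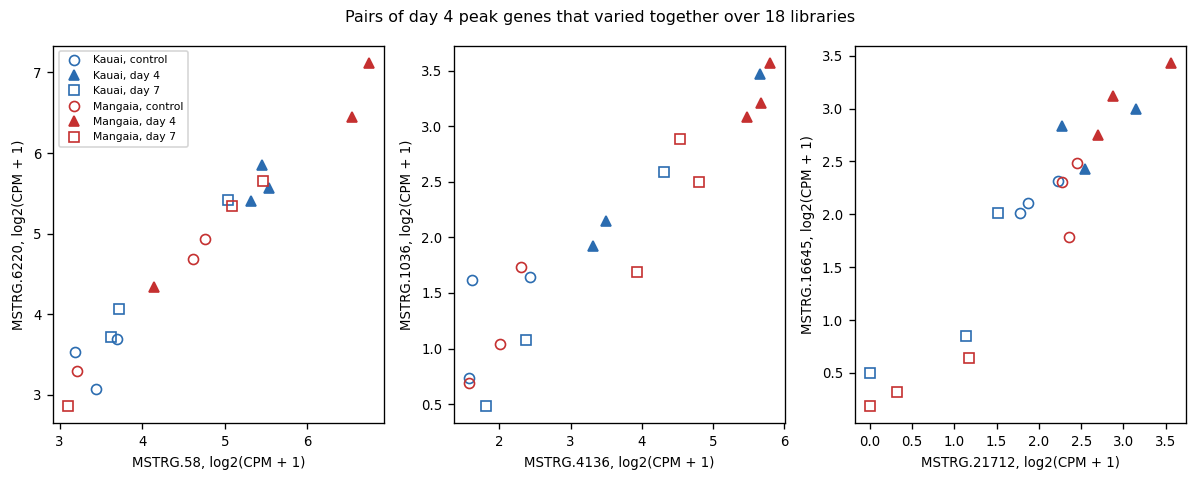
Log2(CPM + 1) of 3 pairs of genes against each other, with 1 point for each of the 18 libraries, Kauai in blue and Mangaia in red. Circles are controls, filled triangles day 4 and squares day 7, and in the left panel Mangaia day 4 library 1 (16.7 and 19.2 CPM) lies among the controls on the same line as the other libraries.

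Counting gave the 11 genes one further property that the rule did not use. The files count each gene without regard to strand and also for each strand alone, and 6 of the 11 (MSTRG.4136, MSTRG.6220, MSTRG.1036, MSTRG.16645, MSTRG.5480 and MSTRG.21180) had the same count in all 3 columns of every library, as did 43.1% of the genes tested. For the other 5 the strands differed. For MSTRG.21712 the strand columns held 571 and 574 pairs against 465 pairs without strand, and for MSTRG.21940 749 and 698 against 534. Sums of the strands over 5% above the unstranded count occurred in 17.8% of genes with such a split. For these 2 genes, pairs that fell in more than 1 gene when strand was ignored were left out, and the kit did not record strand, so their counts are uncertain where they share sequence with a gene on the other strand.

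The threshold of the rule cut through a continuous range. Just inside it, the smallest of the 4 ratios was 1.51 for MSTRG.21180, 1.54 for MSTRG.21940 and 1.55 for MSTRG.5480. Just outside, MSTRG.13344 had 1.497, MSTRG.2822 had 1.495 and MSTRG.17340 had 1.493, each on the ratio of day 4 to day 7 in Mangaia crickets.

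The immune genes listed by the study are a subset of those it counts. The study cites this list for immune genes that changed after infestation in these same samples. Listed genes can therefore be called more often than all genes tested through that choice alone, and nothing is read from such counts. The day 4 mean was the highest of the 3 stages in both populations for 4 of the 53 (7.55%), against 1143 of the 23748 genes tested (4.81%), and none of the 4 reached the ratio of 1.5 throughout. These 4 included 2 of 7 phenoloxidases and none of 10 Toll-like receptors and their relatives. Several of these receptors had control means under 1 CPM in both populations and so could not meet the rule. Among them was MSTRG.7687, with 0.0505 CPM in Kauai and 0.180 CPM in Mangaia controls, whereas MSTRG.7205 averaged 3.30 and 4.21 CPM. MSTRG.10135, annotated as phenoloxidase subunit A3, averaged 8.18 ± 3.46 CPM in Kauai controls, 31.5 ± 16.8 CPM at day 4 and 23.2 ± 11.2 CPM at day 7 (SD, n = 3 each). In Mangaia crickets it averaged 13.1 ± 5.01 CPM in controls, 37.9 ± 17.5 CPM at day 4 and 26.9 ± 4.81 CPM at day 7 (SD, n = 3 each).

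MSTRG.10135 was called at day 4 against controls in Kauai crickets, with a log2 fold change of 1.94 (SE 0.473, edgeR quasi-likelihood adjusted p = 0.0456), and not in Mangaia crickets (1.53, SE 0.460, adjusted p = 0.0897 in that fit). Its log2 fold change of day 4 over day 7 was 0.44 in Kauai crickets (SE 0.448) and 0.49 in Mangaia crickets (SE 0.446), neither of them called. The second phenoloxidase with its highest mean at day 4 was MSTRG.10136, with 36.5 ± 20.7 CPM at day 4 in Kauai and 48.8 ± 13.7 CPM in Mangaia crickets (SD, n = 3 each).

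By edgeR's quasi-likelihood test at an adjusted p under 0.05, 4 of the 7 phenoloxidases were higher at day 4 than in controls in Kauai crickets (1.73% of all genes tested) and 2 in Mangaia crickets (1.89%), and none was lower. At day 4 against day 7 none was higher in either population, and 3 were lower in Kauai crickets (9.18% of genes tested) and 1 in Mangaia crickets (9.79%). At day 7 against controls, 6 were higher (25.1% of genes tested) and 1 was lower (26.2%) in Kauai crickets, and 4 were higher (12.6%) and none lower in Mangaia crickets.

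Of the 10 Toll-like receptors and relatives, 3 were higher at day 4 than in controls in Kauai crickets (1.73% of genes tested) and 1 in Mangaia crickets (1.89%). None was higher at day 4 than at day 7, and 1 was lower in Kauai crickets (9.18%). At day 7 all 10 were higher than in controls in Kauai crickets (25.1% of genes tested) and 5 of the 10 in Mangaia crickets (12.6%). Because the study cites the list for genes that responded in these samples, the counts of both families are descriptions only.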

How the data were processed

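RNA-seq was performed by the authors on 18 libraries from 36 male crickets. Per the labels, reads were processed with Trimmomatic 0.33, STAR 2.5.3a and StringTie 1.3.4d. The deposited files hold raw counts of uniquely mapped read pairs per gene, 1 file per library, and the column without regard to strand was used. The rows for unmapped, multimapping, unassigned and ambiguous pairs stayed out of library sizes, and 68.5% to 73.2% of pairs were in genes. No library was left out, and 3 pools per group limit the precision.

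Counts were analysed in R 4.3.3. The 6 groups were fitted in one quasi-likelihood model over 23748 genes with edgeR 4.0.16 after TMM normalization, and genes were called at a Benjamini-Hochberg adjusted p under 0.05 over all genes tested. Standard errors were taken as the size of the log2 fold change over the root of its F value. Correlations used log2 CPM with a prior count of 2. Intervals and floors cover counting error only. The test was checked on simulated counts.

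The genes described and the immune list were chosen with earlier results of these data known. All 11 genes were named with every library, together with the 3 genes nearest outside the threshold and the phenoloxidases and Toll-like receptors of the immune list whose mean was highest at day 4 in both populations. MSTRG.16281, MSTRG.2949, MSTRG.7687 and MSTRG.7205 fell outside this choice and were named after their values were seen. Alternatives were other tests (DESeq2 1.42.0, voom in limma 3.58.1 and the likelihood ratio test of edgeR), scaling by RLE or by library size alone, filterByExpr or no filter, fits of the compared libraries only, a replicate block, omission of each library and, for the rule, medians of pools and ratios of 2. Sequences and gene positions were not used here.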

Additional observations from a re-analysis of the deposited data

How the results depend on the processing

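The rule chose 17 genes with RLE size factors (all 11 kept), 18 with library size alone (10 kept, MSTRG.21180 lost) and 4 with ratios of 2 (MSTRG.4136, MSTRG.58, MSTRG.6220 and MSTRG.1036). Medians of pools gave 14 genes, of which 6 were among the 11. Leaving out single libraries gave 7 to 25 genes. The count moved by over 1.5 times without Kauai day 4 library 1 (25), 2 (7) or 3 (23), Kauai control 1 (19), Kauai day 7 library 1 (19), 2 (18) or 3 (18), Mangaia control 1 (18) or Mangaia day 4 library 1 (24). Of the 11 genes, day 7 against control called 5 to 7 in Mangaia crickets, against 6, when single libraries were left out. In Kauai crickets it called 0 to 2, against 0, with 2 when Kauai day 7 library 3 was omitted and 1 when Mangaia day 4 library 1, Kauai day 4 library 2 or Kauai day 7 library 2 was omitted. Other settings gave 3 for the likelihood ratio test, 2 for DESeq2, 2 for limma voom, 1 for RLE size factors and 2 for library size alone in Kauai crickets. Over all genes tested these settings called from 11981 (RLE size factors) to 13444 (library size alone) of 23748. Kauai against Mangaia at day 4 gave 1 gene in the likelihood ratio test, 1 in DESeq2 and 0 to 1 with single libraries left out, and at day 7 it gave 3, 3 and 0 to 1. Over all genes tested the likelihood ratio test and DESeq2 called 505 and 473 at day 4, and 2268 and 2610 at day 7. The call with a library left out came without Kauai day 4 library 2 at both stages. The call of MSTRG.4136 in Mangaia crickets at day 7 was lost without Mangaia control 1 (2.68), and no fold change among the 6 called there was reversed. For libraries with the same replicate number, deviations from group means correlated at -0.31 to 0.262 and were over 0.1 for 6 of 18 pairs. With 3 libraries per group, such correlations cannot decide whether these libraries were prepared together. With the replicate block 6 of the 11 genes were called in Mangaia crickets at day 7 and 0 in the other 5 comparisons. Over all genes tested, the block cut the calls of Kauai against Mangaia at day 7 from 839 to 134. Calls of the interaction fell from 576 to 0. Such falls were not particular to the block. With single libraries left out, calls of Kauai against Mangaia at day 7 ran from 18 to 1278, and calls of the interaction from 0 to 939.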

Other observations

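Besides MSTRG.21712, MSTRG.16645 and MSTRG.17768, 9 genes had all 3 day 4 libraries above all control and day 7 libraries in both populations without meeting the rule, 8 because a ratio was under 1.5 and 1, TOG004935, because its means were too low. They were singled out after their values were seen. The most abundant was MSTRG.18901, with means of 280.9 CPM in controls, 321.0 CPM at day 4 and 244.3 CPM at day 7 in Kauai crickets, and 278.1, 344.3 and 272.1 CPM at the same stages in Mangaia crickets. Its smallest ratio was 1.14. TOG004935 averaged 1.06 CPM in controls, 1.60 CPM at day 4 and 0.266 CPM at day 7 in Kauai crickets, and 0.655, 1.27 and 0.261 CPM in Mangaia crickets.

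MSTRG.2949, annotated as aquaporin-4, a water channel, was one of the 4 immune-list genes with its highest mean at day 4 in both populations, and its pattern was mainly a fall at day 7. In Kauai crickets it averaged 11.5 CPM in controls, 12.1 CPM at day 4 and 1.33 CPM at day 7, and in Mangaia crickets 9.68, 11.1 and 0.859 CPM. The log2 fold change of day 7 over control was -3.09 in Kauai crickets (SE 0.553, edgeR quasi-likelihood adjusted p = 0.000625) and -3.49 in Mangaia crickets (SE 0.583, adjusted p = 0.00114 in that fit).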
